A study of Arabidopsis thaliana with 39 samples.

Results

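The 29 genes described here code for transcription factors of Arabidopsis thaliana that carry a numbered family name. They were taken from the array rows annotated to exactly 1 gene whose symbol starts with bZIP, WRKY, MYB, NAC, ANAC, ERF, bHLH or HB followed by a number. bZIP58 and BHLH101 were left out of the 31 rows found in this way, and no gene had a second row. The 29 genes stand among 16554 different genes with a row of their own and 28501 rows in all. They are 16 of the 30 genes with a numbered bZIP symbol in RefSeq, 7 of 67 WRKY genes, 5 of 13 bHLH genes and 1 of 79 NAC genes. No row named after a numbered MYB, ERF, ANAC or HB gene was found, so the MYB and ERF families, which the working name of the set includes, have no member here.

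The bZIP proteins bind DNA as pairs held together by a leucine zipper, and the bHLH proteins as pairs held by a helix-loop-helix, so that a change in the amount of a single partner can alter many target genes. WRKY proteins bind W-box elements and many of them act in immune and stress signalling, while some regulate phosphate transporter genes in roots. In roots short of iron, a group of bHLH factors switches on the genes of iron uptake, and zinc shortage is sensed by a pair of bZIP factors. Many of these proteins are controlled after transcription, by splicing, cleavage, phosphorylation or turnover, which an array of transcript levels does not measure.

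RNA was measured on 39 whole-transcript arrays of roots of wild-type accession Columbia-0, aged 10 days at the start and raised with 1 mM phosphate. The 13 groups of 3 arrays were roots after 3, 6 and 9 h without phosphate, without iron and without both nutrients, roots after 3, 6 and 9 h in full medium, and roots at time 0. The labels number the replicates but do not say that they were separate cultures, so p-values here reflect array-to-array spread, part of which may be technical. In such whole-root RNA, fewer cells of a type and less RNA per cell cannot be told apart.

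Levels are the deposited values on a scale read as log2, given their range of 0.141 to 12.8. The base was inferred from that range, and every fold given here depends on it. Array medians lay between 3.34 and 3.45. Levels of different rows are not set against each other, since each row has its own probes. A difference was called at a limma p under 0.05 after Benjamini-Hochberg adjustment over all 28501 rows, and errors of differences are standard errors (SE) of that fit, whose spread is shared by all 13 groups. Of the tissue markers listed, 2 of 17 for roots and 4 of 13 for shoots had a row. The summed level of the root markers EXPA7 and EXPA18, expansins of root hairs, was 4.89 to 6.48 on the arrays after transfer and 5.89 to 7.02 at time 0. The shoot markers, among them RCA and LHCB4.1 of photosynthesis, summed to 6.55 to 9.50 after transfer and 7.06 to 9.25 at time 0. These genes were not at 0, and none of the 6 was called in any comparison.

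WRKY22 (AT4G01250) and WRKY29 (AT4G23550), both placed downstream of the flagellin receptor FLS2 and its MAP kinase cascade, were the 2 members called higher than at time 0 after transfer. After 3 h in full medium, 2 of 29 members (6.90%) were called, both higher, against 0.575% of all rows called in either direction. WRKY22 read 5.25, 4.52 and 4.34 after 3 h in full medium, against 3.58, 3.58 and 3.49 at time 0. All 3 arrays after transfer lay above all 3 of time 0, and the spread at 3 h was the wider. WRKY22 averaged 4.70 ± 0.48 after 3 h and 3.55 ± 0.05 at time 0 (SD, n = 3 each), or 1.16 higher on the log2 scale (2.23-fold, SE 0.27, limma adjusted p = 0.0300). WRKY29 read 7.30, 6.99 and 7.70 after 3 h in full medium, against 5.82, 6.34 and 5.44 at time 0. Here too the groups did not overlap. WRKY29 averaged 7.33 ± 0.36 after 3 h and 5.87 ± 0.46 at time 0 (SD, n = 3 each), or 1.46 higher on the log2 scale (2.75-fold, SE 0.33, limma adjusted p = 0.0305). Neither call held in a fit of these 6 arrays alone, where the limma adjusted p was 0.252 for WRKY22 and 0.214 for WRKY29. WRKY22 was also lost without any array of time 0 and without replicate 1 or 2 of full medium (limma adjusted p 0.0515 to 0.305), and WRKY29 without replicate 1 or 3 of either group (limma adjusted p 0.142 to 0.193).

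The 9 deprived arrays at 3 h did not enter the means of that comparison, but they entered the shared spread behind its p. Both genes were high on them too. WRKY22 read 5.09, 4.63 and 5.65 without phosphate, 5.93, 4.30 and 5.18 without iron, and 5.10, 4.98 and 5.74 without both. Every one of these 9 values exceeded the highest value at time 0. Set against the shared time 0 arrays, comparisons added after the data were seen, WRKY22 was 1.58 higher without phosphate (limma adjusted p = 0.00103), 1.59 higher without iron (limma adjusted p = 0.000828) and 1.73 higher without both (limma adjusted p = 0.000201) on the log2 scale. In fits of the 2 groups compared alone, the limma adjusted p was 0.0663 without phosphate and 0.301 without iron, past the threshold. WRKY29 read 6.41, 7.40 and 7.30 without phosphate, 7.84, 7.41 and 8.04 without iron, and 6.98, 6.64 and 7.43 without both. The WRKY29 difference from time 0 was called without iron (1.90, limma adjusted p = 0.00181, but 0.106 in a fit of those 6 arrays alone), and it was 1.17 without phosphate (limma adjusted p = 0.123) and 1.15 without both (limma adjusted p = 0.0833). The members called numbered 1 without phosphate, 2 without iron and 1 without both, against 0.649%, 0.863% and 1.63% of all rows.

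With the 4 media averaged, 12 arrays against the 3 of time 0, WRKY22 and WRKY29 were again the members called at 3 h, where 2.07% of rows were called. The WRKY22 difference was 1.51 (SE 0.21, 2.85-fold, limma adjusted p = 3.18e-05) and that of WRKY29 was 1.42 (SE 0.26, 2.67-fold, limma adjusted p = 0.00174). All 12 arrays at 3 h lay above all 3 of time 0 for both genes, as they did for 1.08% of rows. WRKY22 was called at 3 h under every alternative setting and whichever array was left out. WRKY29 was lost only without replicate 3 of time 0, at a difference of 1.20 (limma adjusted p = 0.0507). The summed root markers spanned 4.89 to 6.48 at 3 h and 5.89 to 7.02 at time 0, and the shoot markers 6.68 to 9.43 and 7.06 to 9.25, so both sums overlapped between the times. Their part in the result was not tested.

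**Figure D1:**
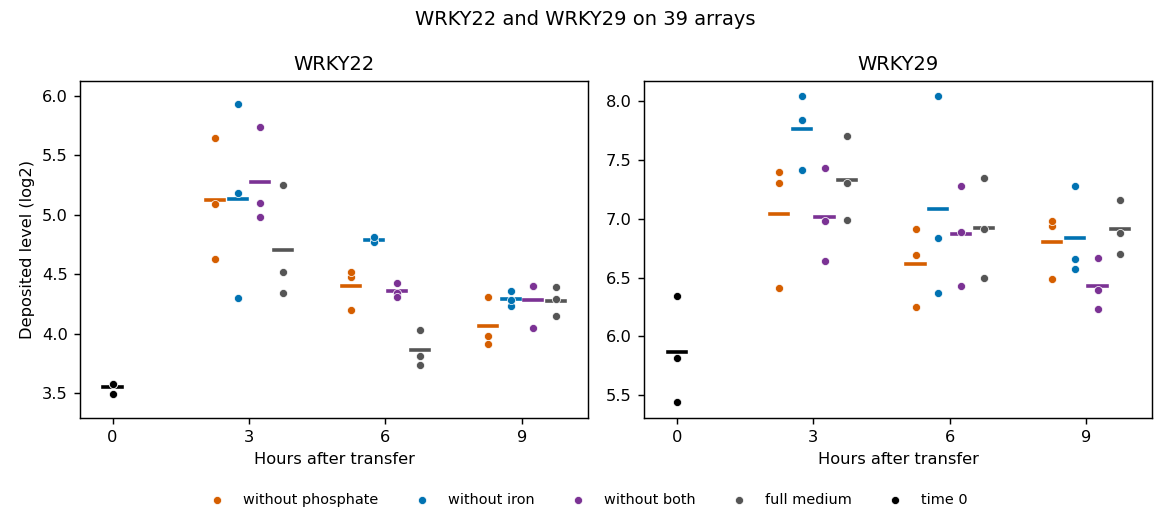
Deposited level (log2) of WRKY22 and WRKY29 against hours after transfer, 1 point an array and a bar at each group mean (n = 3), coloured by medium and set side by side at each hour. For both genes all 12 arrays at 3 h lie above the 3 arrays of time 0, and the median of WRKY22 over the media is 5.09 at 3 h, 4.38 at 6 h and 4.29 at 9 h.

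The WRKY22 level then fell between 3 and 6 h, while all 12 arrays at 6 h stayed above time 0, as for 1.31% of rows. Over the 4 media WRKY22 ranged from 3.74 to 4.81 at 6 h (median 4.38, n = 12) and from 4.30 to 5.93 at 3 h (median 5.09, n = 12). The ranges overlapped, the lowest array at 3 h lying just below the median at 6 h. WRKY22 fell by 0.71 on the log2 scale from 3 h (SE 0.13, limma adjusted p = 0.0032), and the call held under each alternative and without each of the 24 arrays. At 6 h against time 0, WRKY22 was still 0.81 higher over the 4 media (limma adjusted p = 0.0284) and WRKY29 1.00 higher (limma adjusted p = 0.0314), where 2.56% of rows were called. WRKY22 lost that call without any single array of time 0 (limma adjusted p 0.0851 to 0.148). WRKY29 lost it when only the compared groups were fitted (limma adjusted p = 0.142) and without replicate 1 or 3 of time 0 or replicate 3 of the medium without both at 6 h (limma adjusted p 0.0514 to 0.289).

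At 9 h neither gene passed the test against time 0 in the fit without a replicate block. WRKY22 ranged from 3.91 to 4.40 (median 4.29, n = 12) and WRKY29 from 6.23 to 7.28 (median 6.68, n = 12). The differences of 0.68 for WRKY22 (limma adjusted p = 0.0738) and 0.88 for WRKY29 (limma adjusted p = 0.0669) were not called, and 0 of 29 members were, against 3.03% of rows. With the replicate number as a block the count was 2 members, and it was also 2 with array quality weights and when only the compared groups were fitted. All 12 WRKY22 arrays at 9 h still lay above time 0, and so did those of WRKY6, as for 1.74% of rows. Between 6 and 9 h no member was called either, against 0.379% of rows. bZIP52, a group I bZIP factor, had the lowest p there, with a difference of 0.28 (SE 0.10, limma adjusted p = 0.272).

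In full medium alone, 0 of 29 members were called at 6 h and at 9 h against time 0, where 1.15% and 1.27% of rows were. WRKY29 was 1.05 higher at both times, with a limma adjusted p no lower than 0.161. WRKY22 read 3.74, 3.81 and 4.03 after 6 h in full medium, and its difference from time 0 was 0.31. This was the group after transfer with the lowest WRKY22 mean, 3.86 ± 0.15 (SD, n = 3). Without iron at 6 h WRKY22 read 4.78, 4.77 and 4.81, and it was the member called against time 0 there (1.24, limma adjusted p = 0.00897), where 1.25% of rows were. In the other 5 comparisons of a deprived medium with time 0, at 6 h without phosphate or both and at 9 h without phosphate, iron or both, 0 of 29 members were called, against 1.38%, 1.28%, 1.28%, 1.35% and 1.74% of rows.

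Of the members that are iron regulators of the bHLH family, bHLH121 was called over time and none was called for a missing nutrient. BHLH101 was left out of the set and is not covered by this statement. bHLH34 (AT3G23210), bHLH104 (AT4G14410) and bHLH115 (AT1G51070) are close relatives that work with ILR3 to switch on the iron-deficiency bHLH genes and PYE, and bHLH121 (AT3G19860), also called URI, is their partner. bHLH121 ranged from 6.71 to 7.07 at 6 h (median 6.86, n = 12) and from 6.17 to 6.88 at 3 h (median 6.50, n = 12). Most arrays at 3 h lay below all those at 6 h, and the ranges overlapped. The bHLH121 level was 0.35 higher at 6 h than at 3 h (SE 0.083, 1.28-fold, limma adjusted p = 0.0261), which with WRKY22 made 2 of 29 members called, against 1.19% of rows. Leaving out any 1 of 6 arrays ended the call. These were replicate 1 of full medium at 3 h, of full medium at 6 h and of the medium without iron at 3 h, and replicate 2 of the medium without phosphate at 3 h and of that without both at 3 h and 6 h (limma adjusted p 0.0547 to 0.07).

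The lowest group mean of bHLH121, 6.31, was that after 3 h without both nutrients, with arrays at 6.32, 6.17 and 6.45, against 6.30, 6.88 and 6.67 in full medium at 3 h and 6.98, 6.88 and 6.66 at time 0. Those 3 arrays lay below every array of time 0 but overlapped full medium. Over the 4 media at 3 h bHLH121 was −0.32 from time 0 (limma adjusted p = 0.267), which did not pass. bHLH104 had the lowest spread of any member within groups (SD 0.133). Over the 4 media it differed from time 0 by 0.27, 0.25 and 0.29 at 3, 6 and 9 h, with limma adjusted p of 0.174, 0.210 and 0.106, so none of these passed.

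Without iron, none of the 4 iron regulators was called against full medium. The mean difference over 3, 6 and 9 h was 0.13 for bHLH34 (95% interval −0.11 to 0.37) and 0.02 for bHLH104 (95% interval −0.12 to 0.16). It was 0.06 for bHLH115 (95% interval −0.16 to 0.29) and −0.03 for bHLH121 (95% interval −0.23 to 0.16). A list of further iron regulators held 12 entries, among them URI, the other name of the member bHLH121. Of these entries, 5 had a row outside the members, and none of the 5 was called against full medium. ILR3 and PYE differed by −0.08 (SE 0.092) and −0.16 (SE 0.11) over the 3 times, with limma adjusted p of 1.0. IMA2, a small peptide of the iron response, was 1.46 higher after 9 h without iron than at time 0 (limma adjusted p = 0.00927), while its difference from full medium at 9 h was 1.01 (SE 0.31, limma adjusted p = 1.0).

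**Figure D2:**
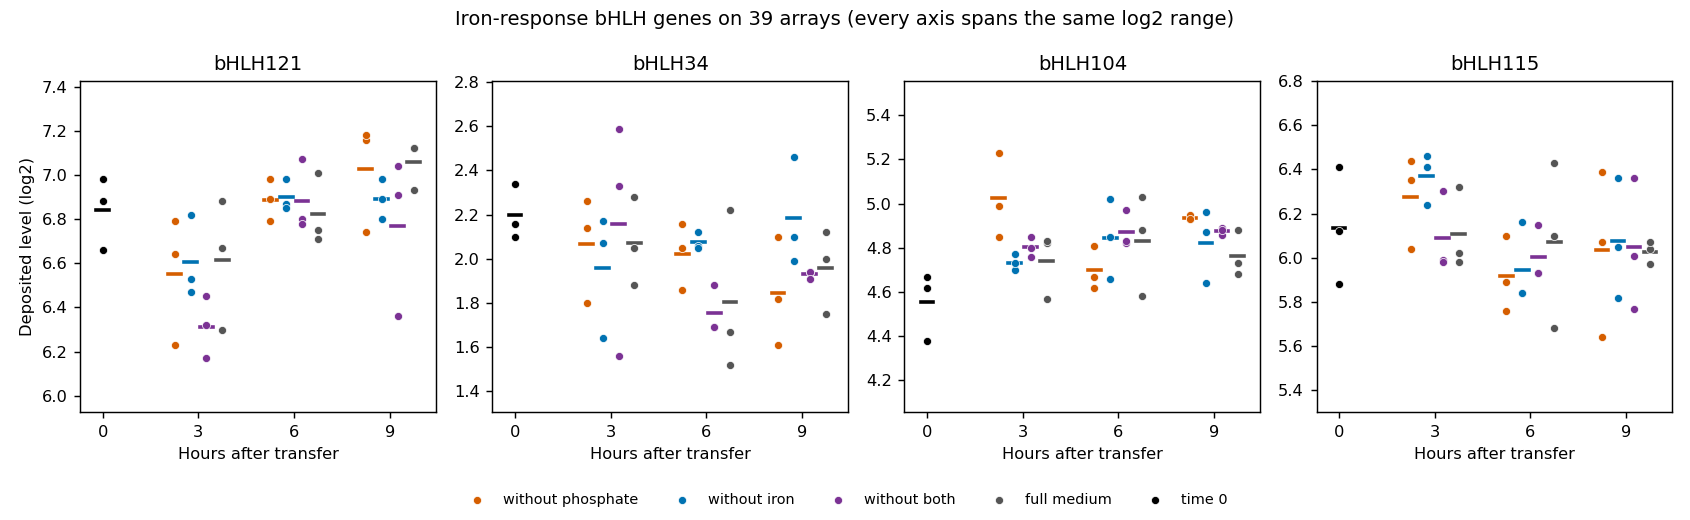
Deposited level (log2) of bHLH34, bHLH104, bHLH115 and bHLH121 against hours after transfer, 1 point an array and a bar at each group mean (n = 3), with every axis spanning the same range. bHLH121 is 0.35 higher at 6 h than at 3 h, and the points of the media overlap for the other genes at most hours.

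No member was called for a missing nutrient. In all 12 comparisons with full medium, at 3, 6 and 9 h and over the times, 0 of 29 members passed. The shares of rows called at 3, 6 and 9 h and over the times were 0%, 0%, 0.00702% and 0% without phosphate, 0%, 0%, 0% and 0.0105% without iron, and 0.0246%, 0%, 0.00351% and 0.0105% without both. At an unadjusted p under 0.05, members numbered 0 to 3 in any of these comparisons, and rows 565 to 1315. The phosphate by iron interaction over the 3 times had 0 of 29 members and 0% of rows called by limma, with 0 members and 672 rows at an unadjusted p under 0.05. The 95% interval of the mean difference over the 3 times stayed within 1 on the log2 scale in either direction, a 2-fold change, for 29 of 29 members in each deprivation. At single times, where 3 arrays stand against 3, it did so for 24 to 28 members, so for the remaining 1 to 5 a change of that size lay inside the interval. Of the 29 members, 5 had a row mean below the lower quartile of all rows. In such dim rows background subtraction can change differences most, so their narrow intervals say less.

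WRKY22 had the lowest p of the members in 4 of these 12 comparisons and in the interaction. At 6 h without iron its arrays read 4.78, 4.77 and 4.81, against 3.74, 3.81 and 4.03 in full medium. The groups did not overlap, as for 6.32% of rows, and the difference was 0.93 (95% interval 0.39 to 1.47, limma adjusted p = 1.0). Without both nutrients at 6 h it read 4.34, 4.43 and 4.31 (difference 0.50, limma adjusted p = 1.0), and without phosphate 4.48, 4.52 and 4.20. The 3 deprived media share the full-medium arrays, in which WRKY22 was low at 6 h. Over the 3 times the WRKY22 difference was 0.46 without iron (95% interval 0.14 to 0.77) and 0.36 without both (95% interval 0.05 to 0.67), and its interaction was −0.35 (SE 0.22), all with a limma adjusted p of 1.0.

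WRKY6 (AT1G62300) and WRKY42 (AT4G04450), which repress the phosphate exporter gene PHO1, and their relative WRKY47 (AT4G01720) were not called in any comparison. Over the 3 times without phosphate the difference was −0.22 for WRKY6 (95% interval −0.56 to 0.12), −0.05 for WRKY42 (95% interval −0.34 to 0.23) and −0.09 for WRKY47 (95% interval −0.31 to 0.12). WRKY6 read 6.60, 7.01 and 7.36 after 3 h without phosphate, 7.80, 7.73 and 7.81 without iron, 7.77, 7.87 and 7.63 without both, and 7.29, 7.21 and 7.23 in full medium. At 3 h both media without iron lay above full medium on every array, while the medium without phosphate alone overlapped full medium. Groups did not overlap at 3 h for 7.66% of rows without iron and 9.47% without both. At 6 h WRKY6 averaged 7.57 without iron and 7.45 without both, below the 7.65 of full medium. At 9 h it averaged 7.92 and 7.78, against 7.55. At 9 h without iron WRKY6 had the lowest p of the members, reading 7.51, 7.97 and 8.30 against 7.69, 7.43 and 7.52 in full medium (difference 0.38, limma adjusted p = 1.0). WRKY47 read 7.40, 7.08 and 6.94 after 3 h in full medium, against 7.83, 7.51 and 7.39 at time 0. The groups overlapped at 7.40 and 7.39, and the difference was −0.44 (SE 0.18, limma adjusted p = 0.413). WRKY41 (AT4G11070), which acts in seed dormancy through ABI3, had the widest spread within groups (SD 0.682), and WRKY20 (AT4G26640) a spread of 0.167. Neither was called.

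The factors of the unfolded protein response were not called. BZIP17 (AT2G40950) and BZIP28 (AT3G10800) are anchored in the endoplasmic reticulum membrane and released under stress, and BZIP60 (AT1G42990) is activated when the kinase and nuclease IRE1 splices its RNA, a change that a level on the array need not show. BZIP60 read 5.36, 5.17 and 5.24 after 3 h without iron, against 4.80, 4.83 and 5.01 in full medium. The groups did not overlap, and BZIP60 had the lowest p of the members there (difference 0.38, SE 0.15, limma adjusted p = 1.0). The other deprived media at 3 h also lay above the full-medium arrays they share, at 5.08, 5.26 and 5.08 without phosphate and 5.14, 5.39 and 5.12 without both. At time 0 BZIP60 read 5.12, 5.13 and 5.24, and its difference between full medium at 3 h and time 0 was not called. What set these groups apart was not tested. Over the 3 times the deprivation differences of these 3 genes lay between 0.02 and 0.14.

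Among the zinc and salt factors, bZIP19 (AT4G35040) and bZIP23 (AT2G16770), the zinc sensors, and BZIP24 (AT3G51960), a factor of salt stress, were not called. The mean difference over the 3 times without iron was 0.07 for bZIP19 (95% interval −0.19 to 0.33), 0.21 for bZIP23 (95% interval −0.13 to 0.54) and 0.02 for BZIP24 (95% interval −0.23 to 0.27). BZIP24 had the lowest p of the members at 9 h without both (difference −0.41, SE 0.21, limma adjusted p = 1.0).

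BZIP53 (AT3G62420) and bZIP44 (AT1G75390) belong to the S1 bZIP factors, which act when sugar or energy is short, and bZIP42 (AT3G30530), bZIP43 (AT5G38800), bZIP48 (AT2G04038), bZIP70 (AT5G60830) and bZIP75 (AT5G08141) to the wider group S. None of the 7 was called. BZIP53 read 6.70, 6.84 and 6.61 after 3 h without both nutrients, against 6.51, 6.40 and 6.16 in full medium. Those groups did not overlap, and BZIP53 had the lowest p of the members there (difference 0.36, SE 0.14, limma adjusted p = 1.0). At 6 h over the 4 media the level of BZIP53 was −0.23 from that at 3 h (SE 0.071, limma adjusted p = 0.112).

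BZIP61 (AT3G58120), like BZIP34 (AT2G42380) a group E factor, had the lowest p of the members over the 3 times without phosphate. It averaged 4.66, 4.68 and 4.71 at 3, 6 and 9 h without phosphate, against 5.19, 5.0 and 5.08 in full medium. Single arrays of the media overlapped at all 3 times, and full medium read as low as 4.70 at 3 h and 4.64 at 6 h, while a phosphate-free array at 9 h read 5.51. The mean difference was −0.41 (SE 0.16, 95% interval −0.73 to −0.08, limma adjusted p = 1.0). Without both nutrients it was −0.34 (95% interval −0.66 to −0.01) against the same full-medium arrays. BZIP34, a gene of pollen development, differed by 0.05 without phosphate (95% interval −0.33 to 0.44). bZIP52 (AT1G06850) read 4.71, 4.69 and 4.53 after 9 h without both, against 4.43, 4.30 and 4.53 in full medium, so that the lowest deprived and the highest full-medium array were equal to 2 decimals.

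The last members were the lowest in p for phosphate at single times. bHLH104 read 4.99, 5.23 and 4.85 after 3 h without phosphate, against 4.57, 4.82 and 4.83 in full medium (difference 0.28, SE 0.12, limma adjusted p = 1.0). BHLH92 (AT5G43650), linked to salt and osmotic stress, read 1.76, 1.33 and 1.06 after 6 h without phosphate, against 0.98, 0.91 and 0.94 in full medium (difference 0.44, limma adjusted p = 1.0). These groups did not overlap, though BHLH92 is one of 5 members, with bZIP42, bZIP43, bZIP70 and bZIP75, whose row mean lay below 1.71, the lower quartile of all rows. NAC014 (AT1G33060) was lower on every array after 9 h without phosphate than in full medium, with a difference of −0.24 (limma adjusted p = 1.0). Groups of 3 against 3 did not overlap for 0 to 4 members in any of the 9 deprivation comparisons at single times. At 3, 6 and 9 h the same held for 8.04%, 7.70% and 7.47% of rows without phosphate, 7.66%, 6.32% and 9.03% without iron, and 9.47%, 6.31% and 9.90% without both.

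**Figure D3:**
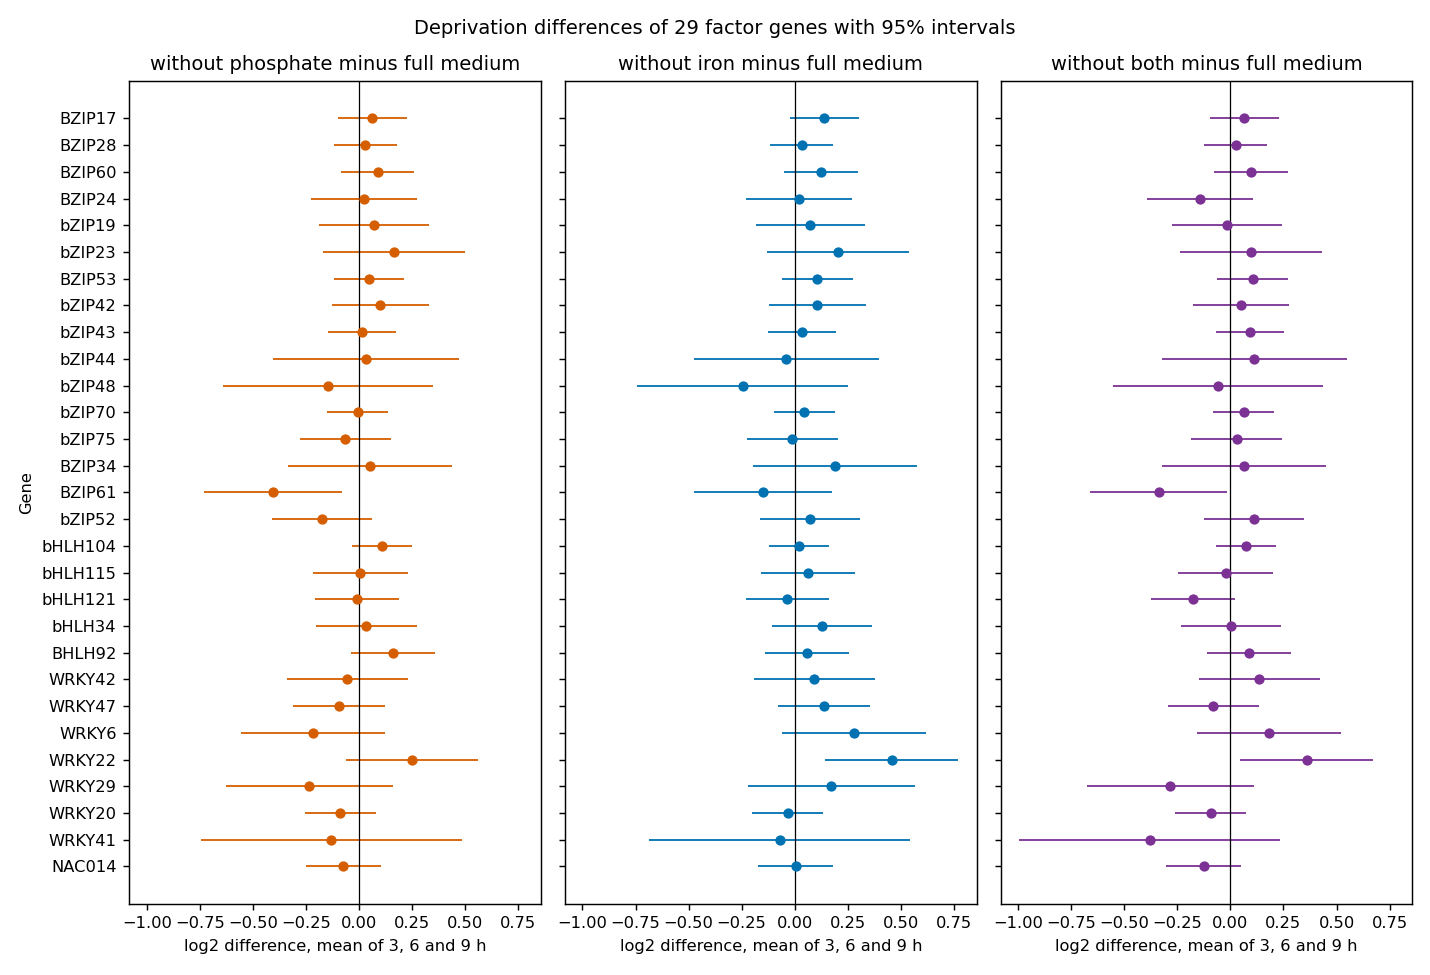
Difference of each deprived medium from full medium (log2, mean of 3, 6 and 9 h) for the 29 genes, with 95% intervals of the limma fit, in 3 panels by missing nutrient. Every interval lies within 1 of 0, and none of the differences passed adjustment over all rows.

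Taking all 13 groups together, 1 of 29 members varied between groups by the F test of limma, WRKY22 (F 7.55, adjusted p = 0.000933), against 1.47% of rows. The next members by this test were WRKY29 (limma adjusted p = 0.113), bHLH121 (0.184), BZIP53 (0.639), WRKY6 (0.648), bHLH104 (0.672), WRKY47 (0.732) and bZIP52 (0.758). The range of the 13 group means had a median of 0.508 over the members and of 0.454 over all rows, and the SD within groups had a median of 0.240 over the members and of 0.231 over all rows. The range was widest for WRKY29 (1.90) and WRKY22 (1.73) and narrowest for bZIP75 (0.194).

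Across the 13 group means, which share their 4 media and times, the 406 pairs of members had a median correlation of 0.05. Since only 1 of 29 members varied by the F test, this median does not show whether the set moved together. The correlation was 0.73 between WRKY22 and WRKY29 and −0.71 between WRKY22 and bHLH121. It ran from −0.88 between bZIP44 and WRKY41 to 0.85 between bZIP52 and WRKY6, and its median was 0.11 over the 39 pairs within a role. These values describe 13 points and carry no test.

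**Figure D4:**
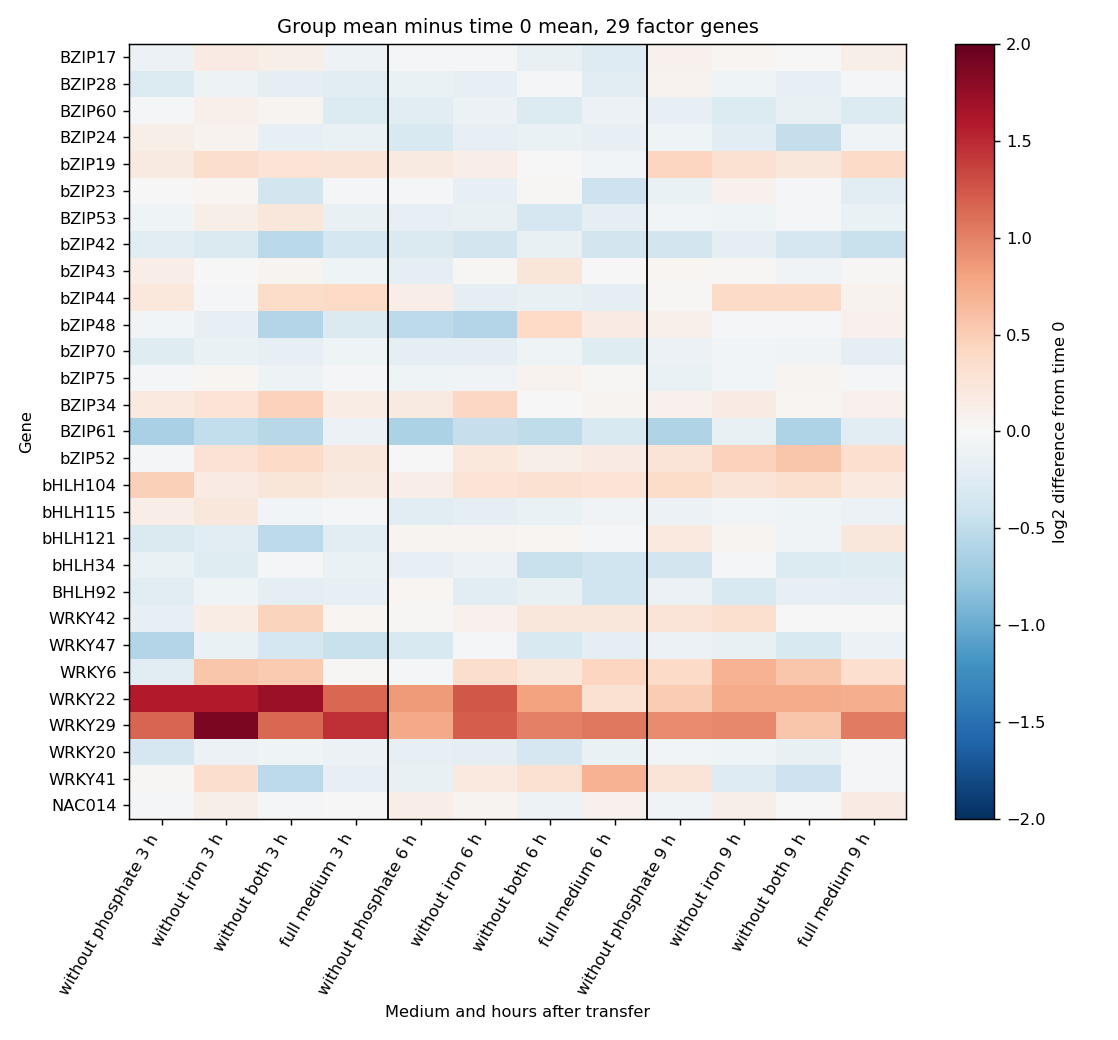
Group mean minus the mean at time 0 (log2, colour from −2 to 2) for the 29 genes, in rows, by medium and hours after transfer, in columns, each group of 3 arrays. WRKY22, WRKY29 and bHLH104 are above time 0 in all columns, and WRKY29 after 3 h without iron is 1.90 above it.

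Other factor and regulator genes, among them factors of these families under other names, clock genes and regulators of iron and phosphate, were looked up in 12 lists. Of the 245 entries, some of them second names such as URI for bHLH121, 30 had a row outside the members. None of the 30 was called for a missing nutrient. Over time 4 of the 30 were called in 1 or more of the 5 comparisons of full medium with time 0 or between hours. Taken singly, these comparisons called 0.575%, 1.15%, 1.27%, 1.19% and 0.379% of rows. The share of rows called in any of the 5 was not counted. Since the lists were chosen with earlier results of these data known, the count does not measure how often such genes change. DREB2C, a drought and heat factor of the AP2/ERF class, was 1.42 higher after 6 h in full medium than at time 0 (SE 0.27, limma adjusted p = 0.00257). HAT2, an auxin-responsive homeodomain factor, fell by 0.77 on the log2 scale (SE 0.15, limma adjusted p = 0.00363) in the same comparison, and GI, a clock protein, was 1.32 higher (SE 0.19, limma adjusted p = 6.82e-05). HHO2, a MYB-type factor of the phosphate and nitrate response, fell by 0.38 between 3 and 6 h over the 4 media (SE 0.085, limma adjusted p = 0.0165). HYH, a bZIP factor of light signalling, was called in the added comparisons of the 4 media with time 0, where it fell by 0.93 at 3 h (SE 0.25, limma adjusted p = 0.0401) and by 1.0 at 6 h (SE 0.25, limma adjusted p = 0.0194), and it was not called at 9 h.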

How the data were processed

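Biotin-labelled targets from 100 ng of total RNA were hybridised to whole-transcript arrays, per the labels' protocols. The authors deposited 1 value per row and array, taken here as log2. The submitters' processing notes name GCRMA, Transcriptome Analysis Console and Affymetrix Expression Console, without versions. GCRMA subtracts a background estimated from the probes' bases and scales the arrays to each other, which can change differences of dim rows most. Precision is limited by the number of arrays.

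The platform annotation named the rows (16746 of 28501 rows with 1 gene), and all 29 members matched RefSeq by gene ID. No sequence was used. All 39 arrays entered 1 fit with a mean per group in limma 3.58.1 (R 4.3.3, lmFit and eBayes), with no filter, and p-values were adjusted over all rows within each contrast. The script was tested on simulated data with noise independent between arrays, so that test does not cover deviations shared by arrays of a replicate number. Comparisons of the 4 media together, or of a deprived medium, with time 0 were added after the data were seen.

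The members and lists were chosen with earlier results of these data known. Full values were given to members called in a planned contrast and, up to 8 members, to those with the next lowest p of the F test, and the member with the lowest p was named in each deprivation contrast. Other members and array values were chosen after they were seen. No arrays were identical (smallest root-mean-square difference 0.299, median between replicates 0.431).

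Whether replicate numbers pair the arrays was checked by correlating each array's deviations from its group mean. The correlation averaged 0.259 for the same number in other groups and −0.128 for other numbers. Deviations within a group sum to 0, so the second average largely follows from the first. On average, 37 of the 39 arrays correlated best with arrays of their own number in other groups. Every pair exceeded 0.1 in 6 of 12 comparisons, full medium at 3 h against time 0 among them. The main fit did not use the replicate number. Alternatives were the replicate number as a block, quantile normalization, rows above the median level only, array quality weights, an intensity trend in the prior variance, the compared groups alone and leaving out each array.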

Additional observations from a re-analysis of the deposited data

Results flagged for a closer look

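The difference of BZIP53 between the medium without both nutrients and full medium had opposite signs at 3 and 6 h. Its 3 arrays without both nutrients lay above all 3 full-medium arrays at 3 h (6.70, 6.84 and 6.61 against 6.51, 6.40 and 6.16). At 6 h they lay below them (6.08, 6.18 and 6.25 against 6.25, 6.35 and 6.37), though the highest deprived and the lowest full-medium array were equal as printed. The difference was −0.15 at 6 h and 0.36 at 3 h. The effect at 6 h minus that at 3 h was −0.52 on the log2 scale, with a limma p of 1.0 after adjustment over all rows. In this contrast 0 of 28501 rows were called. Groups without both nutrients did not overlap full medium for 9.47% of rows at 3 h and 6.31% at 6 h. BZIP53 was found by searching all members and deprivations for such a reversal, and the share of rows with a reversal was not counted.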

How the results depend on the processing

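The alternatives were run on the counts of members called, on the differences of called members and on that of the member with the lowest p in each deprivation comparison. None of these differences changed sign, and the other named differences were not recomputed. With the replicate number as a block, 2 members were called over the 4 media at 9 h against time 0, 2 without iron at 6 h and 2 without phosphate at 3 h, while full medium at 3 h against time 0 kept its count of 2 and 0 were called for a missing nutrient. Without the block these counts were 0, 1 and 1. The block raised the rows called for full medium at 3 h to 274, against 164. With rows above the median level only, the same comparisons gave 1, 2 and 2 members. With array quality weights, 2 were called at 9 h over the 4 media, 2 by the F test, 2 without both at 3 h and 1 without both at 9 h, against 0, 1, 1 and 0. With the compared groups alone, 0 were called in full medium, without iron and without phosphate at 3 h, 1 over the 4 media at 6 h and 2 at 9 h, and the cause was not tested. This setting was not run for the F test or the interaction.

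Leaving out 1 array, the members called numbered 0 to 1 for full medium at 3 h and 1 to 2 for the 4 media at 3 h. They numbered 0 to 2 for the 4 media at 6 h, 0 to 1 at 9 h, 1 to 3 between 3 and 6 h and 1 to 2 by the F test. Against time 0 they numbered 2 without iron at 3 h, 1 to 2 without iron at 6 h, and 1 to 2 without phosphate and without both at 3 h. In the other comparisons they stayed at 0. Calls were gained at 9 h over the 4 media, without iron at 6 h and without both at 3 h when replicate 2 of time 0 was left out. They were also gained by the F test without replicate 1 or 2 of the medium without iron at 6 h (WRKY29, limma adjusted p 0.046 and 0.0273), without iron at 6 h when its replicate 1 was left out, without phosphate at 3 h when its replicate 3 was, and between 3 and 6 h without replicate 2 of the medium without phosphate at 6 h. Single calls that ended are given with the results.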
